A study of Arabidopsis thaliana with 64 samples.

Results

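Transcript levels of 10 genes that write, copy or remove DNA methylation were followed in *Arabidopsis thaliana* parents, F1 hybrids and F4 lines. The genes were chosen by name and taken by locus identifier from the deposited count tables, where they are 10 of 33321 gene rows. DDM1 (AT5G66750), MET1 (AT5G49160), CMT3 (AT1G69770) and CMT2 (AT4G19020) act in maintenance. NRPD1 (AT1G63020), RDR2 (AT4G11130), DCL3 (AT3G43920), NRPE1 (AT2G40030) and DRM2 (AT5G14620) act in RNA-directed DNA methylation (RdDM), and ROS1 (AT2G36490) acts in demethylation. All 10 passed the filter on low counts at both ages.

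The study sequenced RNA from 64 libraries in 32 groups of 2 pools, each pool made from 5 untreated plants. The inbred parents were the accessions C24 and Ler, and every other genotype descends from a cross of these. Batch 1 held C24 and Ler (pools A and B), the F1 C24xLer and the F4 lines L1-1, L1-2, L2-1 and L2-2. Batch 2, grown under other light tubes, held C24 and Ler (pools C and D), the reciprocal F1 LerxC24 and the F4 lines L3-1, L3-2, L4-1 and L4-2. The protocols call the L lines hybrid mimics. These 14 groups were sampled as aerial seedling tissue at 15 days after sowing (DAS) and as the 4 largest leaves at 28 DAS. At 15 DAS only, the F4 lines S1-1 and S2-1 and pools of the smallest C24 and smallest Ler seedlings, 5 of 50, were added, which gives 18 groups (36 libraries) at 15 DAS and 14 groups (28 libraries) at 28 DAS. The protocols do not say which batch each S line was in. Plants grew in 16 h of light at 22 °C and 8 h of dark at 18 °C and moved from medium to soil at 18 DAS. Age, tissue and growth substrate therefore cannot be told apart. The p-values measure the spread between pools, and the sources used here do not say whether pools were grown apart. In bulk RNA, fewer cells of a type and less RNA per cell cannot be told apart.

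In plants, methylated cytosines occur in CG, CHG and CHH contexts, where H is any base but G. MET1 copies CG methylation after DNA replication, the chromomethylases CMT3 and CMT2 keep CHG and CHH methylation through methylated histone H3 lysine 9, and the remodeller DDM1 opens heterochromatin to these enzymes. In RdDM, RNA polymerase IV (largest subunit NRPD1) and the RNA-dependent RNA polymerase RDR2 make double-stranded RNA, which DCL3 dices into small RNAs. Transcripts of RNA polymerase V (largest subunit NRPE1) guide the methyltransferase DRM2 to matching DNA, and the glycosylase ROS1 cuts methylated cytosine out again. The RefSeq assembly TAIR10.1 places DDM1 at chr5:26648897-26653191 (plus strand, 16 exons in its longest transcript), MET1 at chr5:19932114-19938470 (plus, 12), CMT3 at chr1:26248118-26253687 (minus, 21) and CMT2 at chr4:10414428-10421265 (plus, 23). The RdDM genes are NRPD1 at chr1:23354685-23362589 (minus, 19), RDR2 at chr4:6780449-6784632 (plus, 4), DCL3 at chr3:15753387-15760859 (plus, 24), NRPE1 at chr2:16714460-16723718 (plus, 18) and DRM2 at chr5:4715105-4718704 (minus, 10). ROS1 is at chr2:15307907-15314807 (minus, 21).

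Libraries held 36324848 to 256721442 counted reads, and each gene of the set had 192 to 14912 counts per library (median 1426). Normalised read counts are given as CPM throughout, counts over the library size after scaling by the trimmed mean of M values (TMM) over the 64 libraries. Both Ler pools of batch 1 at 15 DAS went against their label in part. Over 57 genes with at least 5 CPM in C24 and a level more than 16-fold lower in Ler of batch 2, their median level was 31.9% (pool A) and 17.25% (pool B) of C24, against 1.54 and 1.37% in the smallest Ler pools, which the choice of genes did not use. The comparisons at 15 DAS and with age were also run after exchanging these pools for the smallest Ler pools, and the values are given where a call changed or a value moved by over 1.5 times. C24 pool B of batch 1 and smallest C24 pool B differed by a chi-square of 2.46 per degree of freedom, where the next closest pair had 17.6, and results are given without both where a call changed. The labels of L4-2 pool B at 28 DAS name 28 DAS in one field and 15-day seedlings in others. On a scale from 0 (15 DAS) to 1 (28 DAS) over 3680 genes its RNA lay at 1.02, within the 28 DAS range of 0.979 to 1.03, and it was grouped at 28 DAS. The summed level of 4 leaf markers had a median of 29600 and 54960 CPM at 28 DAS (batches 1 and 2), against 14090 and 14220 CPM at 15 DAS. Summed root markers lay at 4.47 to 8.09 CPM at 28 DAS and 40.3 to 260.9 CPM in these groups at 15 DAS, and 8 flower organ genes at 5.42 to 17.5 and 9.67 to 26.4 CPM.

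Levels were compared between genes as CPM per kilobase of the longest annotated transcript. At 15 DAS the order of the median levels was ROS1 (21.8, range 13.96 to 34.8), MET1 (10.8, 6.96 to 13.7), CMT2 (7.27), DRM2 (6.95), CMT3 (6.88), DDM1 (5.65), NRPE1 (4.82), RDR2 (3.02), DCL3 (2.72) and NRPD1 (1.88, 1.34 to 2.49). The ranges of ROS1 and MET1 did not overlap, and those of every other pair of neighbours did. At 28 DAS ROS1 (16.2, 10.6 to 25.5) and MET1 (8.86, 4.74 to 14.3) still led and NRPD1 (1.97) was still last, but the ranges of ROS1 and MET1 then overlapped, and CMT2 and NRPE1 were the 1 pair of neighbours whose ranges did not. The genes that make the small RNA precursors and dice them were thus the least abundant of the set per kilobase at both ages, and the demethylase the most abundant. Reads were mapped to TAIR10, the Columbia genome, so a low level in C24 or Ler and sequence divergence cannot be told apart.

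**Figure D1:**
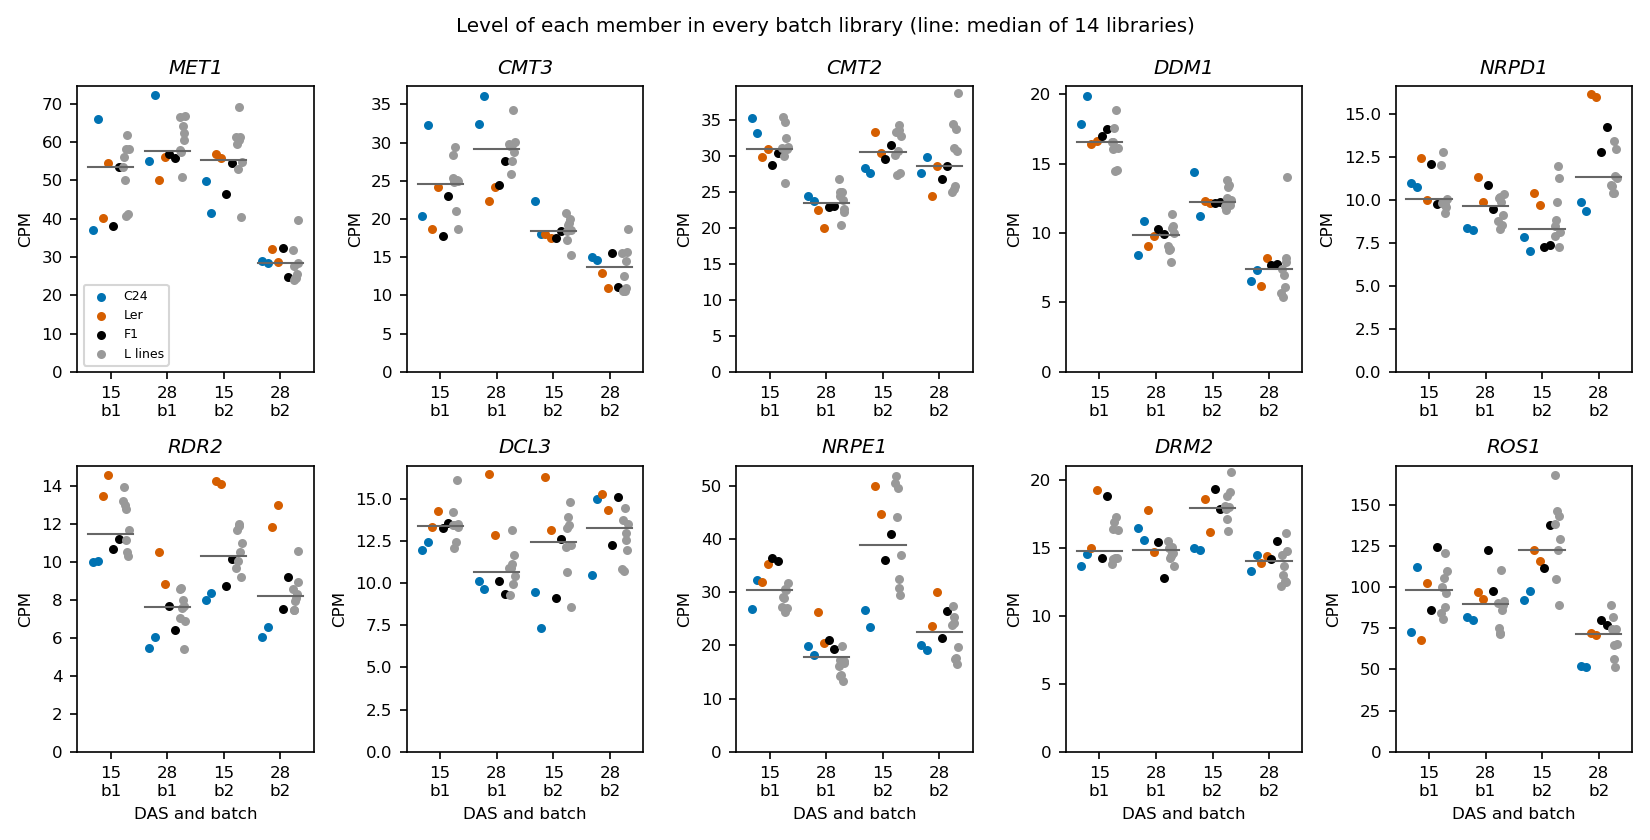
CPM of each of the 10 genes (y axis, 1 panel per gene) in the libraries of each age and batch (x axis), with C24 in blue, Ler in orange, F1 hybrids in black, L lines in grey and a line at the median of 14 libraries. MET1 and ROS1 at 28 DAS lie lower in batch 2 than in batch 1 by their medians, and DDM1 and NRPE1 lie lower at 28 than at 15 DAS in both batches.

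The first comparison was of the leaves at 28 DAS with the seedlings at 15 DAS, over the 7 genotypes of each batch. By edgeR's quasi-likelihood test with Benjamini-Hochberg (BH) adjustment over 30407 genes, called below 0.05, 8 of the 10 genes changed in batch 1 and 9 in batch 2. All genes changed at about the same rate, 83.7% in batch 1 (38.1% higher and 45.6% lower) and 83.3% in batch 2 (37.7% higher and 45.6% lower), so the counts do not set these genes apart. The median log2 difference of the 10 genes was -0.22 in batch 1 and -0.41 in batch 2, beside -0.10 and -0.11 for all genes. DDM1, NRPE1 and RDR2 fell in both batches, while MET1, CMT3, NRPD1 and DCL3 were called in opposite directions in the 2 batches. After the exchange for smallest Ler the same number, 8 of 10, was called in batch 1, and no difference of the 10 genes moved by more than 0.06. The choice of scaling mattered here. Scaling to total counts in place of TMM moved the median of all genes by -0.59 in batch 1 and by -0.76 in batch 2 on the log2 scale, and the share of calls that were higher at 28 DAS went from 45.6 to 19.1% and from 45.3 to 16.8% of all genes called. With total counts 0 of the 10 genes were higher and 10 lower in each batch, so these age differences are also given against the median of all genes where their sign depends on the scaling.

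MET1, the CG maintenance methyltransferase, had a lowest, median and highest level of 37.0, 53.4 and 66.0 CPM in the 14 libraries of batch 1 at 15 DAS and of 50.0, 57.6 and 72.2 CPM at 28 DAS. In batch 2 these values were 40.4, 55.2 and 69.3 CPM at 15 DAS and 23.98, 28.4 and 39.7 CPM at 28 DAS. The ages overlapped widely in batch 1, whereas in batch 2 every leaf library lay below every seedling library. MET1 fell in batch 2 by 0.93 on the log2 scale (SE 0.09, edgeR BH adjusted p = 1.14e-11) and was lower in 7 of 7 genotypes. In batch 1 its difference was 0.23 ± 0.09 (SE, edgeR BH adjusted p = 0.0184), which turned to -0.37 with total-count scaling and was not called without C24 pool A of batch 1 at 15 DAS (0.18, adjusted p = 0.054). Against the median of all genes the batch 1 difference was 0.33 with TMM and 0.32 with total counts.

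CMT3, the CHG methyltransferase, ran from 17.8 to 32.3 CPM (median 24.6) in batch 1 at 15 DAS and from 22.4 to 36.1 CPM (29.2) at 28 DAS. In batch 2 it ran from 15.3 to 22.3 CPM (18.5) at 15 DAS and from 10.6 to 18.7 CPM (13.7) at 28 DAS. The ages overlapped in both batches. CMT3 fell in batch 2 by 0.47 on the log2 scale (SE 0.08, edgeR BH adjusted p = 5.65e-07), and was lower in 6 of 7 genotypes. In batch 1 its difference was 0.27 ± 0.07 (SE, edgeR BH adjusted p = 0.00147), which turned to -0.33 with total-count scaling, and was 0.37 and 0.36 above the median of all genes under the 2 scalings.

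CMT2, the CHH methyltransferase of heterochromatin, had a lowest, median and highest level of 26.3, 31.0 and 35.5 CPM in batch 1 at 15 DAS and 19.99, 23.5 and 26.8 CPM at 28 DAS. In batch 2 the values were 27.4, 30.6 and 34.3 CPM and then 24.5, 28.7 and 38.8 CPM. The ages barely overlapped in batch 1 and overlapped widely in batch 2, where L4-2 pool B gave the highest value. CMT2 fell in batch 1 by 0.43 on the log2 scale (SE 0.05, edgeR BH adjusted p = 1.63e-09), and was lower in 7 of 7 genotypes. In batch 2 the difference was -0.07 ± 0.05 (SE, edgeR BH adjusted p = 0.214), with 5 of 7 genotypes below 0.

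DDM1, the chromatin remodeller, had 14.5, 16.6 and 19.9 CPM as its lowest, median and highest level in batch 1 at 15 DAS and 7.89, 9.84 and 11.4 CPM at 28 DAS. In batch 2 it had 11.2, 12.3 and 14.4 CPM and then 5.37, 7.39 and 14.04 CPM. The ages did not overlap in batch 1, and in batch 2 they overlapped through L4-2 pool B alone, the library with conflicting labels. DDM1 fell by 0.81 ± 0.07 on the log2 scale in batch 1 (SE, edgeR BH adjusted p = 1.33e-13) and by 0.76 ± 0.07 in batch 2 (adjusted p = 8.92e-13), and was lower in 7 of 7 genotypes of both batches.

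Among the 5 RdDM genes, NRPE1, the largest subunit of RNA polymerase V, had the largest fall with age in both batches. Its lowest, median and highest level was 26.3, 30.5 and 36.6 CPM in batch 1 at 15 DAS and 13.2, 17.7 and 26.3 CPM at 28 DAS. In batch 2 it was 23.6, 39.0 and 51.9 CPM and then 16.6, 22.6 and 30.0 CPM. The batch 1 ages met only at 26.3 CPM, and the batch 2 ages overlapped through the C24 pools and L4-2 pool A, which were low at 15 DAS. NRPE1 fell by 0.77 ± 0.06 on the log2 scale in batch 1 (SE, edgeR BH adjusted p = 5.40e-14) and by 0.78 ± 0.06 in batch 2 (adjusted p = 2.91e-14), and was lower in 7 of 7 genotypes of both batches.

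RDR2, which copies polymerase IV transcripts into double strands, ran from 10.01 to 14.6 CPM (median 11.5) in batch 1 at 15 DAS and from 5.42 to 10.5 CPM (7.64) at 28 DAS. In batch 2 it ran from 7.99 to 14.3 CPM (10.3) and then from 6.05 to 12.99 CPM (8.22). The highest leaf value of each batch came from Ler, and Ler made the ages overlap in batch 1. RDR2 fell by 0.67 ± 0.06 on the log2 scale in batch 1 (SE, edgeR BH adjusted p = 1.72e-13) and by 0.31 ± 0.06 in batch 2 (adjusted p = 5.59e-06), again with 7 of 7 genotypes lower in each batch.

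NRPD1, the largest subunit of RNA polymerase IV, had 9.23, 10.04 and 12.8 CPM as its lowest, median and highest level in batch 1 at 15 DAS and 8.24, 9.67 and 11.4 CPM at 28 DAS. In batch 2 it had 7.05, 8.31 and 12.01 CPM and then 9.35, 11.4 and 16.2 CPM. The ages overlapped in both batches, and in batch 2 the leaves were the higher ones. Its difference in batch 2 was 0.46 ± 0.05 on the log2 scale (SE, edgeR BH adjusted p = 4.53e-10), with 0 of 7 genotypes below 0, but with total-count scaling it was -0.30, and 0.57 above the median of all genes under either scaling. In batch 1 NRPD1 fell by 0.16 ± 0.05 (SE, edgeR BH adjusted p = 0.00486), with 7 of 7 genotypes below 0.

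DCL3, the Dicer of RdDM, lay between 7.33 and 16.5 CPM in all 4 sets of 14 libraries, with medians of 13.4 (15 DAS) and 10.7 CPM (28 DAS) in batch 1 and 12.5 and 13.3 CPM in batch 2. It overlaps AT3G43930, a gene on the other strand at 1.09 to 5.95 CPM, and the handling of strand in counting is not given in the sources used here, so their reads may not be told apart. DCL3 fell in batch 1 by 0.28 ± 0.07 on the log2 scale (SE, edgeR BH adjusted p = 0.000729). In batch 2 its difference of 0.15 ± 0.07 (SE, edgeR BH adjusted p = 0.0483) was -0.60 with total-count scaling, 0.26 above the median of all genes under either scaling, and no longer called when any of 15 single libraries was left out (adjusted p 0.0544 to 0.139) or after the exchange for smallest Ler (0.0512). DRM2, the RdDM methyltransferase, had medians of 14.8 CPM at both ages in batch 1, a difference of -0.06 ± 0.05 (SE, edgeR BH adjusted p = 0.281). In batch 2 its median went from 17.9 to 14.03 CPM, a fall of 0.34 ± 0.05 (SE, edgeR BH adjusted p = 3.94e-07) with 7 of 7 genotypes below 0.

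ROS1, the demethylase, had 67.6, 98.3 and 124 CPM as its lowest, median and highest level in batch 1 at 15 DAS and 71.4, 89.7 and 123 CPM at 28 DAS. In batch 2 it had 89.2, 122 and 168 CPM and then 51.4, 71.4 and 89.2 CPM. The ages overlapped almost fully in batch 1, and in batch 2 every leaf library lay below every seedling library. ROS1 fell in batch 2 by 0.84 ± 0.09 on the log2 scale (SE, edgeR BH adjusted p = 5.47e-11), with 7 of 7 genotypes lower. Its batch 1 difference of -0.11 ± 0.09 was not called (SE, edgeR BH adjusted p = 0.238), with 5 of 7 genotypes below 0.

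**Figure D2:**
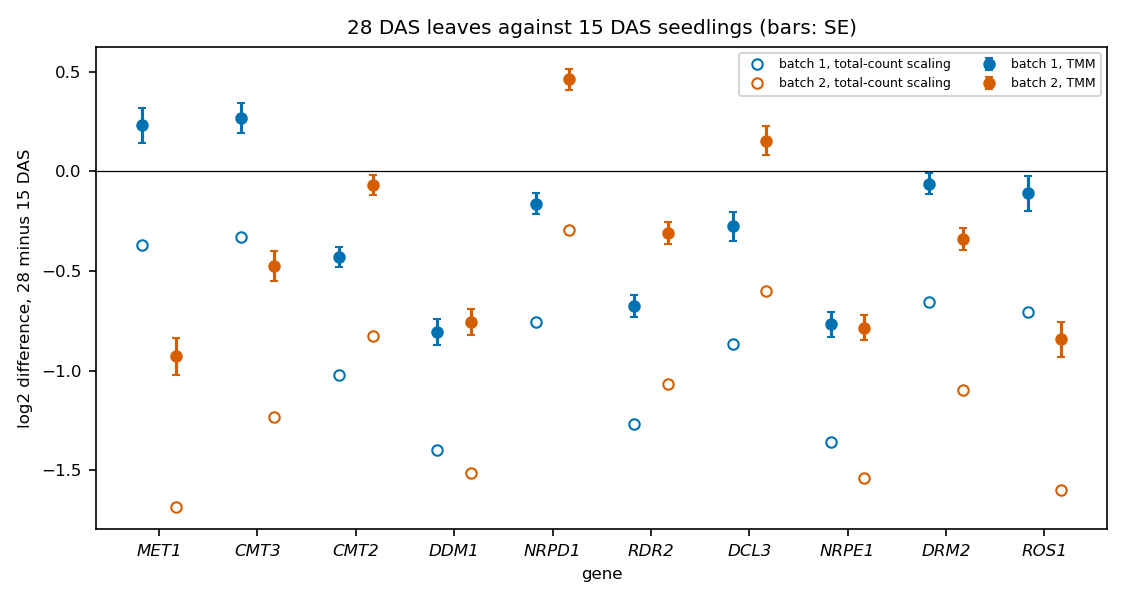
Log2 difference of 28 DAS minus 15 DAS (y axis) for each gene (x axis) in batch 1 and batch 2, with SE bars, filled points for TMM scaling and open points for total-count scaling. DDM1, NRPE1 and RDR2 lie below 0 in both batches under both scalings, while the filled points of MET1, CMT3 (batch 1), NRPD1 and DCL3 (batch 2) lie above 0 and their open points below it.

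The age differences were themselves compared between batches, whose light tubes and F1 and L genotypes differ. The batch 2 minus batch 1 difference was called for 8 of the 10 genes, beside 56.8% of all genes (edgeR, BH). It was largest for MET1 (-1.16), CMT3 (-0.74), ROS1 (-0.73) and NRPD1 (0.62), and it was not called for DDM1 and NRPE1. Genes of dividing cells moved with age as well. Of 5 mitosis genes, 5 fell in both batches, and their summed level went from 61.8 to 86.4 CPM to 21.02 to 32.4 CPM in batch 1 and from 52.0 to 94.5 CPM to 17.9 to 33.3 CPM in batch 2. Of 11 DNA replication genes, 7 fell and 1 rose in batch 1, and 8 fell in batch 2, beside 45.6% of all genes lower in each batch. The median of their summed level was 247.5 (15 DAS) and 243.1 CPM (28 DAS) in batch 1, and 189.1 and 154.2 CPM in batch 2. Of 6 shoot meristem genes, 6 and 5 fell. The part of these markers in the differences of the 10 genes was not tested.

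The other genes of the pathway were counted in the same way. Of 13 further maintenance genes, 4 rose and 6 fell in batch 1 (median log2 -0.05), and 3 rose and 8 fell in batch 2 (median -0.32), while total counts gave 0 and 11 and then 0 and 13. SUVH5, a histone H3 lysine 9 methyltransferase, fell by 1.23 ± 0.06 in batch 1 and by 1.34 ± 0.06 in batch 2 on the log2 scale, and SUVH4, which makes the mark that CMT3 reads, fell by 1.16 ± 0.05 in batch 2 (SE, edgeR BH adjusted p = 4.64e-21). CMT1, a chromomethylase with low RNA, fell from 2.31 to 0.844 CPM in batch 1 and from 2.03 to 0.698 CPM in batch 2. DRM1, the paralog of DRM2, fell in batch 2 from 1.66 to 0.802 CPM. HDA6, a histone deacetylase, went from 19.8 to 26.7 CPM in batch 1, a log2 difference of 0.44 that was -0.16 with total-count scaling. IBM1, which protects gene bodies from CHG methylation, went from 19.4 to 31.5 CPM in batch 1 but was not called with total counts (adjusted p = 0.16). In the other batch, looked up later, the TMM log2 differences were -0.16 (SUVH4) and -1.16 (DRM1) in batch 1. They were 0.20 (HDA6) and 0.44 (IBM1) in batch 2, and all of these were called.

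Of 27 further RdDM genes, 6 rose and 12 fell in batch 1 and 10 rose and 13 fell in batch 2, with medians of -0.11 and -0.12 beside -0.10 and -0.11 for all genes, while total counts gave 1 and 26 and then 1 and 23. All 4 CLSY genes, whose chromatin remodellers bring polymerase IV to its sites, fell in both batches. CLSY2 went from 13.5 ± 0.793 to 3.80 ± 0.617 CPM in batch 1 (SD, n = 14) and from 21.1 ± 2.68 to 4.13 ± 0.599 CPM in batch 2, falls of 1.84 ± 0.06 and 2.36 ± 0.06 on the log2 scale (SE, edgeR BH adjusted p = 6.85e-26 and 1.09e-28). CLSY3 fell from 3.41 to 1.24 CPM and from 3.23 to 1.37 CPM, and CLSY4 from 1.99 to 0.547 CPM in batch 1. CLSY4 in batch 2 (by 1.33 on the log2 scale) and CLSY1 in both (by 0.50 and 0.45) fell too, values looked up after the others were seen. KTF1, a polymerase V associated factor, fell from 67.9 to 36.2 CPM and IDN2, a double-stranded RNA binding protein, from 36.5 to 21.8 CPM in batch 2. MORC2, a paralog of MORC1, went from 11.04 to 25.4 CPM in batch 1, and how reads shared by paralogs were counted is not given in the sources used here. In the other batch, looked up later, IDN2 (log2 -0.47, batch 1) and MORC2 (0.74, batch 2) were called in the same direction. KTF1 in batch 1 (-0.03) was not called.

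Of 8 further demethylation genes, 5 rose and 3 fell in batch 1 (median log2 0.43) and 3 rose and 4 fell in batch 2 (median -0.04), while total counts gave 2 and 4 and then 3 and 5. APE1L, an endonuclease of base excision repair, rose from 15.5 to 31.7 CPM in batch 1 and from 12.6 to 30.2 CPM in batch 2. IDM2, which acts with the acetyltransferase IDM1, rose from 3.10 ± 0.247 to 11.9 ± 5.46 CPM and from 2.09 ± 0.287 to 11.4 ± 5.43 CPM (SD, n = 14). The spread of IDM2 was far larger in the leaves than in the seedlings. DML3, a glycosylase related to ROS1, fell by 0.80 ± 0.07 in batch 1 and rose by 1.05 ± 0.07 in batch 2 on the log2 scale (SE, edgeR BH adjusted p = 1.18e-13 and 4.74e-17).

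In batch 1 at 15 DAS, pools of the same letter also differed in the same direction. In these 7 groups pool B was above pool A in 7 of 7 for MET1, CMT3, DDM1, DRM2 and ROS1, but in 2 of 7 for NRPD1. It was above in 6 of 7 for CMT2, NRPE1 and DCL3 and in 5 of 7 for RDR2. The share of all genes in 7 of 7 is not given. Across genes, deviations of same-letter pools correlated above 0.1 in 31 of 36 pairs of groups (median r 0.334), the smallest parental pools included. The counts therefore do not set these genes apart. MET1 lay at 37.0 to 53.3 CPM in the A pools and at 53.5 to 66.0 CPM in the B pools, with a median log2 difference of 0.49, and the medians for ROS1 and CMT3 were 0.46 and 0.37. The summed DNA replication genes were higher in pool B in 6 of 7 of these groups. At 28 DAS in batch 1, pool B was above pool A in 3 of 7 groups for MET1 and DDM1, 6 of 7 for CMT3 and 1 of 7 for DRM2 and ROS1. In the 5 groups of batch 2 with these letters at 28 DAS it was above in 5 of 5 for DDM1 and DRM2, 3 of 5 for MET1, 1 of 5 for CMT3 and 0 of 5 for ROS1. The letters mark no batch or day in the labels, and the cause of the difference was not tested. Summed DNA replication genes lay at 207.4 to 308.9 CPM (15 DAS) and 206.4 to 274.7 CPM (28 DAS) in batch 1, against 134.6 to 213.1 and 133.5 to 208.7 CPM in batch 2.

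**Figure D3:**
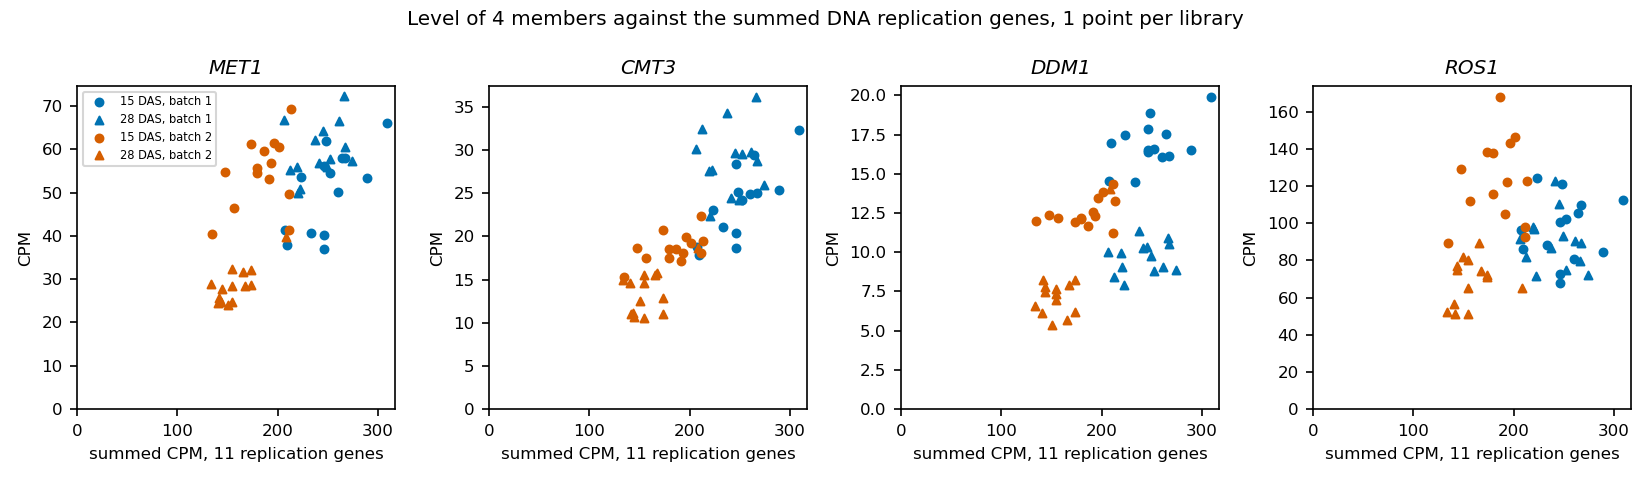
CPM of MET1, CMT3, DDM1 and ROS1 (y axes) against the summed CPM of 11 DNA replication genes (x axis) in each library, with circles for 15 DAS, triangles for 28 DAS, blue for batch 1 and orange for batch 2. Batch 2 lies at lower replication sums (133.5 to 213.1 CPM) than most of batch 1 (206.4 to 308.9 CPM), and the 28 DAS triangles of DDM1 lie below its circles in both batches apart from 1 triangle of batch 2, L4-2 pool B (14.04 CPM).

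Because replication genes of plants often carry binding words of E2F factors, the 300 bases before each annotated gene start were read for 8 such words on both strands, namely TTTCCCGC, TTTCCCGG, TTTCGCGC, TTTCGCGG, TTTGCCGC, TTTGCCGG, TTTGGCGC and TTTGGCGG. One of them was present in 2 of the 10 genes and in 6 of the 11 DNA replication genes, and in 877 of 27443 protein-coding genes (3.2%). The stretches of 4 genes are shown because MET1 and CMT3, which differed most with batch in the leaves, hold none of these words, whereas ROS1 and CMT2 hold 1 each, in capitals. They come from the RefSeq assembly TAIR10.1, 5′ to 3′ on the strand of the gene. This is the Columbia genome, and the C24 and Ler alleles of these stretches were not read. MET1 is at chr5:19931814-19932113 (plus strand), CMT3 at chr1:26253688-26253987 (minus strand), ROS1 at chr2:15314808-15315107 (minus strand) and CMT2 at chr4:10414128-10414427 (plus strand). The ROS1 word begins 30 bases before the gene start and the CMT2 word 238 bases before it. A match is only a run of letters, and no match says only that these letters are not in this window.
MET1: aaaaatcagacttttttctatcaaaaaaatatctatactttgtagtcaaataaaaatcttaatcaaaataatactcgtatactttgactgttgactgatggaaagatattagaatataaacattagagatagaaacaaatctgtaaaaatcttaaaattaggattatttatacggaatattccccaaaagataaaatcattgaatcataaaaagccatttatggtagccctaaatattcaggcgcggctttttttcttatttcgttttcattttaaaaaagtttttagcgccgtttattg
CMT3: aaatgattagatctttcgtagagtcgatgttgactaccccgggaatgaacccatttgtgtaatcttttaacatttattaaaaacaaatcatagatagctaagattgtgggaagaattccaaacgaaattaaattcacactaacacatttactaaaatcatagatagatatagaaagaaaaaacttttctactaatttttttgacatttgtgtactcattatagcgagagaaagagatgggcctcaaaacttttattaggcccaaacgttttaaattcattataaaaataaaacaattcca
ROS1: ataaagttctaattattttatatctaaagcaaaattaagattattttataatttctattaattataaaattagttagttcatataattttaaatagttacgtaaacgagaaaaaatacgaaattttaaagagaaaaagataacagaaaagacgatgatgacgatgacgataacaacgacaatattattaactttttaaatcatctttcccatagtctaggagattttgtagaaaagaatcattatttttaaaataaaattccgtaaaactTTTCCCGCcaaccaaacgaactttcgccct
CMT2: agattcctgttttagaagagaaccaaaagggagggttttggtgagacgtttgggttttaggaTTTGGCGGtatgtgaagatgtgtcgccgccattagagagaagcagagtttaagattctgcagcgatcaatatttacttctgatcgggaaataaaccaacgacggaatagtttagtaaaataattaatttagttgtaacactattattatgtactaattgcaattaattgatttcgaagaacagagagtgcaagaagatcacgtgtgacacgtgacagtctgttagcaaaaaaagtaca

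Ler was compared with C24 within each batch and age, since the 2 parents supply the alleles of every other genotype. Of 40 tests, 9 were called, all higher in Ler. In batch 1 RDR2 was the 1 gene of 10 called at 15 DAS and at 28 DAS, beside 6.58 and 13.5% of all genes (3.87 and 6.82% higher in Ler). In batch 2 4 of 10 were called at 15 DAS and 3 of 10 at 28 DAS, beside 18.8 and 13.1% of all genes (8.99 and 6.11% higher in Ler). MET1, CMT3, CMT2, DDM1 and DRM2 were called in none of the 4 comparisons.

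RDR2 was called in all 4. Its C24 pools held 10.01 and 10.1 CPM and its Ler pools 13.5 and 14.6 CPM in batch 1 at 15 DAS, and 7.99 and 8.36 CPM against 14.3 and 14.1 CPM in batch 2. In the leaves they held 5.46 and 6.04 against 10.5 and 8.84 CPM in batch 1, and 6.05 and 6.57 against 11.8 and 12.99 CPM in batch 2. The Ler pools lay above the C24 pools each time. The log2 differences were 0.49 ± 0.12 and 0.75 ± 0.19 in batch 1 (15 and 28 DAS, SE, edgeR BH adjusted p = 0.0148 and 0.0107) and 0.80 ± 0.12 and 0.99 ± 0.19 in batch 2 (adjusted p = 5.96e-05 and 0.00135). Both batch 2 calls held with every library left out. The batch 1 call at 15 DAS was lost without C24 pool A (adjusted p = 0.0881), C24 pool B (0.0993), Ler pool B (0.142) or both near-identical C24 pools (0.0754), and the call at 28 DAS without C24 pool A (0.108) or Ler pool A (0.0976). After the exchange for the smallest Ler pools, the 15 DAS difference was 0.56 (adjusted p = 0.00401).

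NRPE1 held 26.7 and 23.6 CPM in C24 and 50.0 and 44.7 CPM in Ler of batch 2 at 15 DAS, the largest difference of the 5 RdDM genes there. The log2 difference was 0.92 ± 0.14 (SE, edgeR BH adjusted p = 6.43e-05) and was kept with every library left out. In batch 1 at 15 DAS it was 0.18, not called (adjusted p = 0.592), but 0.62 after the exchange for smallest Ler (adjusted p = 0.00436). DCL3 in batch 2 at 15 DAS held 9.46 and 7.33 CPM in C24 against 16.3 and 13.2 CPM in Ler, a difference of 0.82 ± 0.18 (SE, edgeR BH adjusted p = 0.00282) that was lost without C24 pool D (0.0721) or Ler pool C (0.0556). NRPD1 held 7.85 and 7.05 against 10.4 and 9.69 CPM at 15 DAS (0.44 ± 0.14, SE, edgeR BH adjusted p = 0.0329), a call lost without any 1 of the 4 pools (0.0695 to 0.233) or with total counts (0.0554). At 28 DAS NRPD1 held 9.88 and 9.35 against 16.2 and 16.0 CPM, and this difference of 0.76 ± 0.14 (SE, edgeR BH adjusted p = 0.00124) was kept with every library left out. ROS1 in batch 2 at 28 DAS held 52.3 and 51.4 CPM in C24 against 71.9 and 70.8 CPM in Ler, and its difference of 0.48 ± 0.15 (SE, edgeR BH adjusted p = 0.0472) was lost without any 1 of the 4 pools (adjusted p 0.136 to 0.177) or with total counts (0.0986).

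That these genes were called in batch 2 does not show that the parents differed more there. The difference of the Ler against C24 contrast between batches was called for 0 of 10 genes at either age by edgeR, beside 0.783 and 0.191% of all genes. For NRPE1 at 15 DAS it was 0.73 ± 0.23 (SE, edgeR BH adjusted p = 0.178), and for RDR2 0.31 ± 0.21 (adjusted p = 0.831). Both values use the Ler pools of batch 1 that went against their label. After the exchange for smallest Ler, NRPE1 in Ler against C24 at 15 DAS was 0.62 in batch 1 and 0.92 in batch 2.

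**Figure D4:**
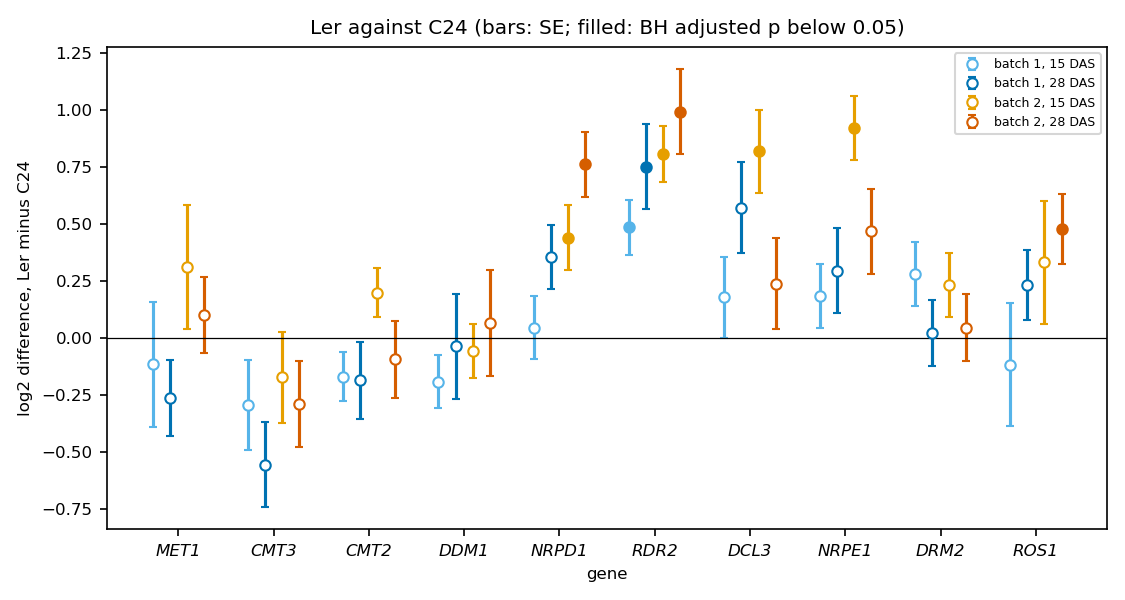
Log2 difference of Ler minus C24 (y axis) for each gene (x axis) in the 4 comparisons of batch and age, with SE bars and filled points for called differences. The filled points, of RDR2 in all 4 comparisons and of NRPE1, DCL3, NRPD1 and ROS1 in batch 2, all lie above 0.

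Other RdDM genes went either way between the parents, with 2 higher and 2 lower in Ler of 27 in batch 1 at 15 DAS, 1 and 5 at 28 DAS, 6 and 5 in batch 2 at 15 DAS (4 and 5 with total counts) and 0 and 3 at 28 DAS. SUVH9, which recruits polymerase V to methylated DNA, was lower in Ler each time, by 0.79, 0.88, 1.56 and 0.84 on the log2 scale in that order, and the batch 2 call at 15 DAS was the 1 kept with every library left out. The first of these uses the Ler pools that went against their label, and after the exchange for smallest Ler it was a fall of 1.55 (edgeR BH adjusted p = 2.79e-06). Of the others, the first 2 were lost when C24 pool B (adjusted p = 0.0915 and 0.0975) or Ler pool A (0.0696 and 0.0998) was left out, and the last without C24 pools C (0.0682) or D (0.0593) or Ler pool D (0.152). FDM1, an RdDM factor counted among those lower in Ler of batch 1 at 15 DAS, was no longer called after the exchange (adjusted p = 0.334). RDM4, a factor shared by RNA polymerases, was higher in Ler at 15 DAS by 0.76 in batch 1 (0.69 after the exchange) and 0.56 in batch 2, and CLSY3 by 1.15 in batch 2. Of 13 maintenance genes, 1, 0, 2 and 2 were higher and 1, 2, 1 and 2 lower in Ler, and of 8 demethylation genes 0, 0, 2 and 2 were higher and 0, 0, 1 and 0 lower.

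The F1 hybrids were set against an in silico mid-parent of the C24 and Ler libraries of their batch. Of 40 tests, 0 were called by edgeR and 0 by DESeq2, and 2 had an unadjusted p below 0.05. All genes were called at 0.209% (15 DAS) and 0.0144% (28 DAS) in C24xLer and at 0.0166 and 0.0289% in LerxC24, so few calls were made for any gene. The log2 differences of the 10 genes ran from -0.30 to 0.37. After the exchange for smallest Ler, 0 of 10 were called in C24xLer at 15 DAS, and NRPE1 went from 0.20 to -0.05 there. ROS1 gave the largest ones at 28 DAS, 0.36 ± 0.16 and 0.37 ± 0.16 (SE, edgeR BH adjusted p = 1 for both). Its C24xLer pools held 123 and 97.8 CPM, both above C24 (81.7 and 79.9 CPM) and Ler (96.9 and 92.8 CPM). Its LerxC24 pools held 80.0 and 76.8 CPM, above C24 (52.3 and 51.4 CPM) and Ler (71.9 and 70.8 CPM). ROS1 was picked here for the size of its differences, and neither was called. The share of all genes with F1 pools above both parents is not given. With SEs of this size, the data cannot show a small departure from the mid-parent.

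The L lines of each batch, as the mean of 4 lines, also gave 0 calls of 40 against the mid-parent by edgeR and 0 by DESeq2, with 1 unadjusted p below 0.05. All genes were called at 1.3 and 0.757% in batch 1 (15 and 28 DAS) and 2.2 and 1.46% in batch 2. The differences ran from -0.37 to 0.29 on the log2 scale, and NRPE1 in batch 1 at 28 DAS was the lowest (-0.37 ± 0.14, SE, edgeR BH adjusted p = 0.58). In batch 1 at 15 DAS NRPE1 was -0.13, and -0.38 after the exchange for smallest Ler, not called (edgeR BH adjusted p = 0.135). The SE leaves out the spread between lines. Of the 48 other pathway genes, RDM4 was the 1 called in any of these 4 comparisons, lower in the batch 1 lines at 15 DAS by 0.39 (edgeR BH adjusted p = 0.0365), and this call was lost without any 1 of its 12 libraries (0.0526 to 0.365) and after the exchange for smallest Ler (0.121).

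The 4 L lines of a batch were then compared with each other. Of 40 tests, 2 were called, both in batch 2 at 15 DAS, where 7.49% of all genes were called, and 0 of 10 were called in batch 1 at 15 DAS (3.38% of all genes), batch 1 at 28 DAS (2.69%) and batch 2 at 28 DAS (1.99%). Unadjusted, 8 of these 40 tests were below 0.05, and 3 were called by DESeq2. In batch 1 at 15 DAS NRPE1 had means of 28.2 (L1-1), 29.8 (L1-2), 28.3 (L2-1) and 29.4 CPM (L2-2). In batch 2 it separated the L3 from the L4 lines. At 15 DAS L3-1 held 50.5 and 51.9 CPM, L3-2 held 44.3 and 49.7 CPM, L4-1 held 30.8 and 32.4 CPM and L4-2 held 29.5 and 37.0 CPM. All 4 pools of the L3 lines lay above all 4 of the L4 lines. For this and the separations of lines below, the share of all genes whose pools separate likewise is not given. The L3 pools lay near the Ler pools (50.0 and 44.7 CPM), and the L4 pools lay between C24 (26.7 and 23.6 CPM) and LerxC24 (36.1 and 41.0 CPM) with 1 above the lower LerxC24 pool. The highest and lowest lines differed by 0.71 on the log2 scale (edgeR BH adjusted p = 0.00293), a call kept under all 15 alternatives. At 28 DAS the order was the same, with 23.9 and 27.4 CPM in L3-1, 24.2 and 25.4 in L3-2, 17.5 and 17.7 in L4-1 and 16.6 and 19.7 in L4-2, but the difference of 0.54 was not called (edgeR BH adjusted p = 0.265).

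NRPD1 was the second gene called in batch 2 at 15 DAS. L4-1 held 12.01 and 11.3 CPM, L3-2 held 8.84 and 9.87 CPM, L3-1 held 7.94 and 8.47 CPM and L4-2 held 7.28 and 8.15 CPM. Both L4-1 pools lay above the other 6 pools. The difference of 0.56 (edgeR BH adjusted p = 0.0376) was lost without L3-1 pool A (0.0696), L3-1 pool B (0.053), L4-1 pool A (0.229), L4-1 pool B (0.103), L4-2 pool A (0.155) or L4-2 pool B (0.0561). At 28 DAS in batch 2 the pool letters paired the libraries. With the letter as a replicate block within batch, DDM1 (log2 0.81, edgeR BH adjusted p = 0.0232), NRPE1 (0.54, 0.0351) and ROS1 (0.60, 0.0206) were called there as well, which brought the count to 5 of 40. With that block 4.52% of all genes were called in batch 2 at 28 DAS, up from 1.99%, and in the other 3 sets of lines 4.31 and 5.08% (batch 1, 15 and 28 DAS) and 12.9% (batch 2, 15 DAS). ROS1 then read 89.2 and 74.7 CPM in L3-1, 82.0 and 65.1 in L3-2, 74.3 and 65.4 in L4-2 and 56.6 and 51.4 in L4-1, with both L4-1 pools below the other 6. The DDM1 difference turned on L4-2, whose pools held 7.93 CPM (A) and 14.04 CPM (B, the library with conflicting labels). Without the block it was 0.83 (edgeR BH adjusted p = 0.184), 1.20 without pool A (0.0204) and 0.36 without pool B (adjusted p = 1).

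**Figure D5:**
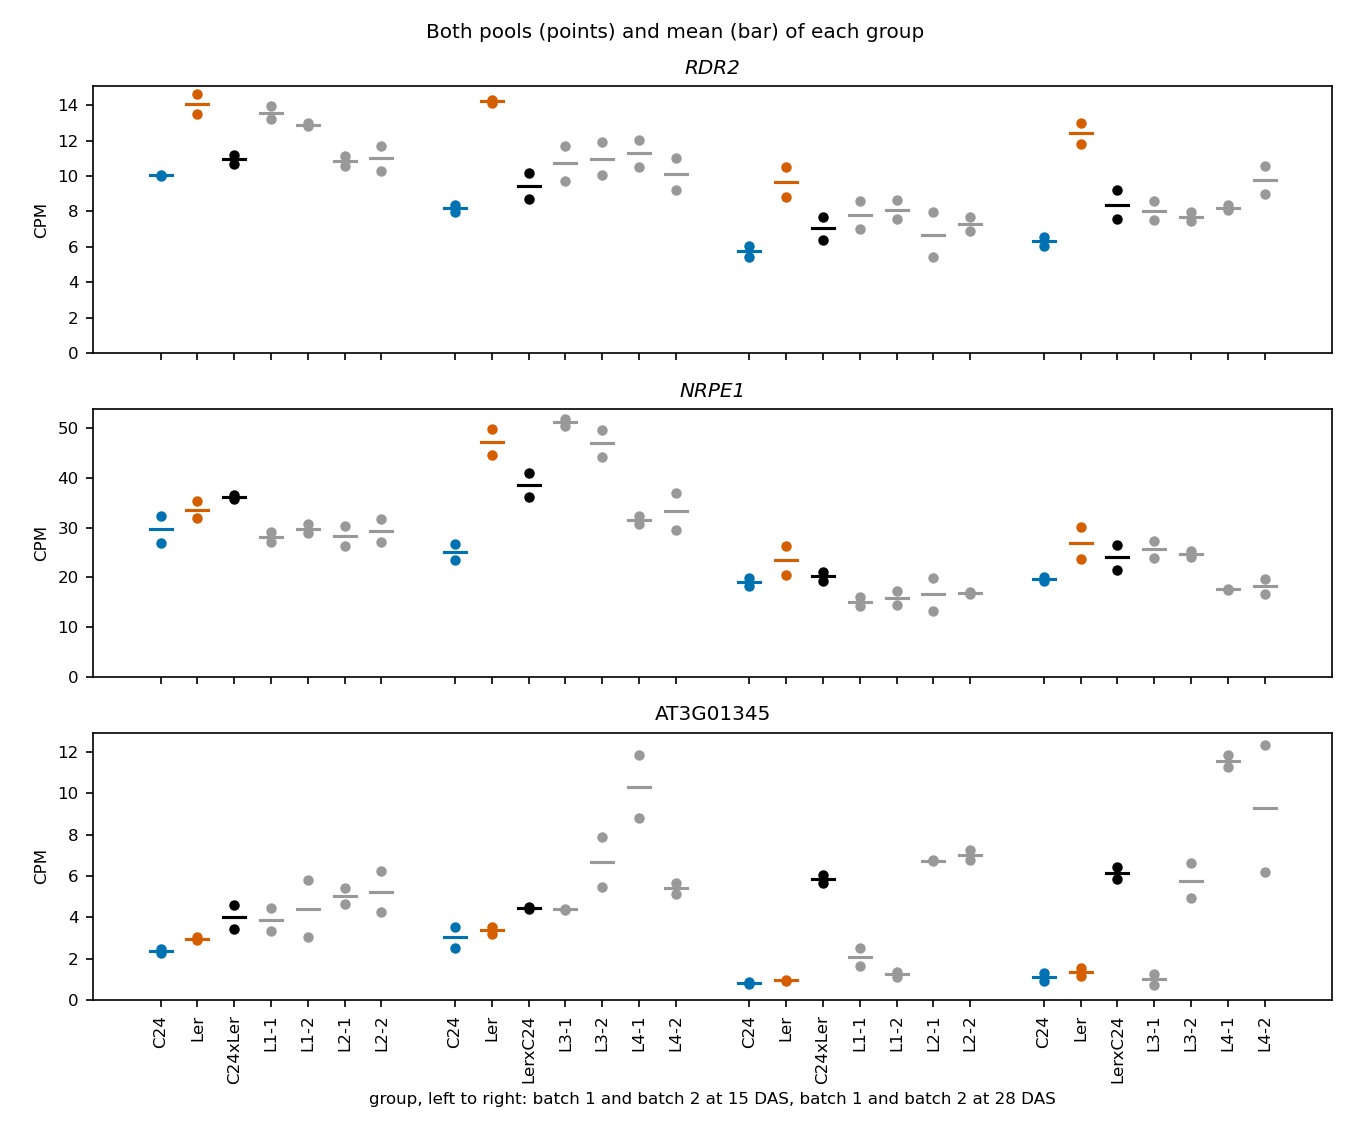
CPM of RDR2, NRPE1 and AT3G01345 (y axes) in each group (x axis), with a point for each pool and a bar for the mean of 2 pools. RDR2 is higher in Ler than in C24 in both batches, NRPE1 is higher in the L3 than in the L4 lines at 15 DAS, and AT3G01345 at 28 DAS lies at 0.77 to 1.56 CPM in the parents and at 0.72 to 12.4 CPM in the L lines.

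Loci known to be silenced by methylation were read beside the machinery. QQS lay at 0 to 0.41 CPM and SDC at 0.34 to 1.61 CPM over the 64 libraries. FWA fell with age by 1.33 and 1.59 on the log2 scale in the 2 batches. The age difference of AT3G01345 was -0.64 and -0.52. That of SDC was 0.42 and 0.40, but -0.17 and -0.36 with total-count scaling. AT3G01345 varied far more among the lines than any of the 10 genes. At 28 DAS the 8 parent pools held 0.77 to 1.56 CPM. In batch 1 L1-1 held 2.50 and 1.65 CPM, L1-2 held 1.36 and 1.13 CPM, L2-1 held 6.79 and 6.70 CPM and L2-2 held 6.79 and 7.24 CPM. In batch 2 L3-1 held 0.72 and 1.27 CPM, L3-2 held 4.92 and 6.63 CPM, L4-1 held 11.3 and 11.9 CPM and L4-2 held 6.20 and 12.4 CPM. L1-2 lay within the range of the parent pools and L3-1 within it or just below it, and the other 6 lines lay above it. The lines differed by 2.48 in batch 1 and 3.49 in batch 2 on the log2 scale (edgeR BH adjusted p = 5.59e-05 and 2.42e-05). Their mean was above the mid-parent by 1.93 in batch 1 (edgeR BH adjusted p = 0.00166), a call lost without any 1 of the 4 parent pools (0.0597 to 0.0703), and by 2.04 in batch 2 (0.000652), a call kept with every library left out. The 2 F1 hybrids held 5.68 to 6.45 CPM. They were above the mid-parent by 2.75 in C24xLer (edgeR BH adjusted p = 0.0103) and 2.32 in LerxC24 (0.0142). Each of these calls was lost when any 1 of its 6 libraries was left out. The differences stayed at 2.68 to 2.79 and 2.11 to 2.58 under all alternatives. At 15 DAS the 8 parent pools held 2.26 to 3.55 CPM, L3-1 4.40 and 4.37 CPM and L1-2 5.81 and 3.04 CPM. The batch 2 lines then differed by 1.22 on the log2 scale (edgeR BH adjusted p = 0.0129). Their mean was above the mid-parent by 1.01 (edgeR BH adjusted p = 0.0128). The first call was lost with 1 of 8 single libraries left out, the second with 4 of 12. By edgeR with all libraries and no replicate block, none of the 10 genes was called among the lines or against the mid-parent at 28 DAS, and DESeq2 called ROS1 among the batch 2 lines (adjusted p = 0.0421).

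The small seedlings at 15 DAS gave 0 calls of 50 by edgeR and 1 by DESeq2, with 4 unadjusted p below 0.05. Among all genes, 0% were called for smallest C24 against C24 of batch 1, 1.3% for smallest Ler against Ler of batch 1, 6.16 and 3.31% for S1-1 and S2-1 against C24xLer, and 1.39% for S1-1 against S2-1. C24xLer was grown in batch 1, and the batch of each S line is not stated. Line and batch therefore cannot be told apart where an S line is set against C24xLer. The log2 differences of the 10 genes ran from -0.44 to 0.44. NRPE1 gave the lowest, in S1-1 against C24xLer, and another gene the highest, in S2-1 against C24xLer. NRPE1 held 24.5 and 29.1 CPM in S1-1 against 36.6 and 35.8 CPM in C24xLer (-0.44 ± 0.14, SE, edgeR BH adjusted p = 0.0629), and this difference was called without both near-identical C24 pools (-0.45, 0.0309). It held 43.2 and 48.5 CPM in smallest Ler against 31.9 and 35.4 CPM in Ler of batch 1 (0.44 ± 0.14, SE, edgeR BH adjusted p = 0.199), whose pools are the ones with C24-type transcripts. The smallest Ler pools overlapped with the Ler pools of batch 2 (50.0 and 44.7 CPM).

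The parents were grown in both batches, and 10 of 40 tests of batch 2 against batch 1 were called, 2 higher and 8 lower. Total-count scaling moved the median of all genes by -0.19 in C24 and -0.27 in Ler at 28 DAS on the log2 scale. MET1 and CMT3 were called at 28 DAS in both parents. In C24, where 8.39% of all genes were called (4.26% higher and 4.13% lower), MET1 went from 55.2 and 72.2 CPM to 29.0 and 28.3 CPM and CMT3 from 32.4 and 36.1 CPM to 15.0 and 14.6 CPM. In Ler, where 9.15% were called (4.25% higher and 4.9% lower), MET1 went from 50.0 and 56.01 CPM to 32.04 and 28.6 CPM and CMT3 from 22.4 and 24.2 CPM to 12.9 and 10.98 CPM. All batch 2 pools lay below all batch 1 pools of their parent. The log2 differences were -1.16 ± 0.17 and -0.79 ± 0.17 for MET1 and -1.22 ± 0.19 and -0.95 ± 0.19 for CMT3 (C24 and Ler, SE, edgeR BH adjusted p = 0.000345, 0.00518, 0.000614 and 0.00341). Both C24 calls were kept with every library left out. In Ler, MET1 was lost without pool B of batch 1 (0.0549) or pool D of batch 2 (0.068), and CMT3 without pool D (0.056). Over all 7 groups of a batch the differences at 28 DAS were -1.06 ± 0.09 for MET1 and -1.09 ± 0.08 for CMT3, where 51.8% of all genes were called.

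The other batch calls were smaller. In C24 at 15 DAS, where 14.3% of all genes were called (6.53% higher and 7.77% lower), DDM1 was lower by 0.54 ± 0.12 on the log2 scale (SE, edgeR BH adjusted p = 0.00437; lost without C24 pool D, 0.105). NRPD1 was lower there by 0.53 ± 0.14 (SE, edgeR BH adjusted p = 0.0146), a call lost without any 1 of the 4 pools (0.0509 to 0.144). In C24 at 28 DAS ROS1 was lower by 0.65 ± 0.15 (SE, edgeR BH adjusted p = 0.0139), also lost without any 1 pool (0.0591 to 0.0916). In Ler at 15 DAS, where 18.5% of all genes were called (8.01% higher and 10.5% lower), DDM1 was lower by 0.41 ± 0.12 (SE, edgeR BH adjusted p = 0.0192), lost without any 1 pool (0.0701 to 0.098), and -0.40 (0.0221) after the exchange for smallest Ler. NRPE1 was higher there by 0.51 ± 0.14 (SE, edgeR BH adjusted p = 0.0132), but by 0.08 (0.733) after that exchange, and it was lost without Ler pool A of batch 1 (0.128) or pool C of batch 2 (0.103) and with total counts (0.0513). In Ler at 28 DAS NRPD1 was higher by 0.61 ± 0.14 (SE, edgeR BH adjusted p = 0.00961), lost without pool B of batch 1 (0.121) or pools C (0.06) or D (0.0531) of batch 2, or with total counts (0.139).

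Markers of dividing cells and of leaves moved with batch too. Of 11 DNA replication genes, 6 were lower in batch 2 in C24 at each age, 4 in Ler at 15 DAS and 1 in Ler at 28 DAS. Of 4 leaf markers at 28 DAS, 2 were higher in batch 2 in C24 and 3 in Ler, and their summed level lay at 22390 to 38820 CPM in batch 1 and at 40320 to 63120 CPM in batch 2. The part of any of these markers in the batch differences of MET1 and CMT3 was not tested. Other maintenance genes were lower in batch 2 at 28 DAS as well, 4 of 13 in C24 and 2 of 13 in Ler, with 0 higher. Of 8 demethylation genes 1 was higher and 2 lower in each parent (1 and 4 in C24 with total counts). DML3 was the higher one, by 1.30 in C24 and 1.21 in Ler on the log2 scale, and DML2, a related glycosylase, was lower by 0.79 and 0.76 (in C24 lost without pool A of batch 1, adjusted p = 0.0795, or pool D of batch 2, 0.0535).

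Across the 32 group means, with each age centred, the genes most like each of the 10 among 20590 genes were listed by Pearson's r of log2 CPM, as a description, since the groups share batches, parents and libraries. The 3 genes nearest to MET1 were BRCA1 (0.959), a DNA repair gene, TOC132 (0.953), a receptor for protein import into chloroplasts, and SYN3 (0.947), a cohesin subunit. Those nearest to CMT3 were AT3G14740 (0.961), AT5G63550 (0.948) and BARD1 (0.946), the partner of BRCA1. Those nearest to DDM1 were AT3G49560 (0.899), CDKB1;1 (0.889), a cell cycle kinase, and TCX2 (0.868). The 3 genes nearest to NRPE1 were AT2G32910 (0.952), AT2G44530 (0.877) and AT2G40010 (0.874), all on chromosome 2 as NRPE1 is. The part of the shared chromosome in this likeness was not tested, and the share of the 20590 genes on chromosome 2 is not given. For the other 6 genes the nearest was AT2G21440 for CMT2 (0.822), AT1G76590 for DRM2 (0.864), AT5G50890 for NRPD1 (0.866), AT5G58390 for RDR2 (0.865), XIP1 for DCL3 (0.878) and AT2G37050 for ROS1 (0.827). Within the set MET1 and CMT3 were the closest pair (r = 0.862), followed by DDM1 and CMT3 (0.767), NRPD1 and DCL3 (0.767), RDR2 and DCL3 (0.762) and NRPD1 and RDR2 (0.752).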

How the data were processed

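RNA was measured in 64 libraries of pooled plants. Reads were checked with FastQC and mapped to TAIR10, per the submitters' processing notes, and the deposited tables of each age hold raw counts per gene by the authors. Which mapper and counter were used, and how strand was handled is not given in the sources used here. Normalised tables, a score made by the authors by rescaling and rounding counts, served only to check column names. In a combined table, 38 columns of per-sample values were not used.

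Counts were tested with edgeR 4.0.16 (limma 3.58.1, R 4.3.3) by quasi-likelihood F tests, after filterByExpr by group and TMM scaling, with BH adjustment over all tested genes (30207 at 15 DAS, 27844 at 28 DAS, 30407 over both ages) and calls below 0.05. The biological coefficient of variation was 0.177 at 15 DAS and 0.225 at 28 DAS. SE is the absolute log2 difference over the square root of the F statistic. Mid-parents are scaled, averaged and rounded counts of 1 C24 and 1 Ler library from 1 batch, 2 per batch and age. The tests were checked on simulated data.

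The 10 genes and the gene lists were chosen with earlier results of these data known. All 10 were described, with up to 4 called genes per list and comparison, those with the smallest adjusted p, and the 3 genes most like each in level. The text names a part of these. Gene names, positions and promoters came from RefSeq TAIR10.1, in which 32565 gene rows were found.

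As alternatives, each library was left out in turn, the filter was dropped, organelle genes were removed, the pool letter entered as a replicate block, letters were crossed in the mid-parent, the smallest Ler pools replaced those of batch 1, and DESeq2 1.42.0 or its size factors were used. The block was centred within each group, so that contrasts compare the means of the pools. Total-count scaling, the block within batch, the exchange of Ler pools in the age comparison, the runs without the near-identical C24 pools, the tests of differences between batches and the check of C24-type transcripts in Ler were chosen after the data were seen. Letters were taken to pair libraries where deviations of same-letter pools correlated above 0.1 in every pair of groups. This held in batch 2 at 28 DAS (10 of 10 pairs, 0.448 to 0.656) and not in batch 1 at 15 DAS (31 of 36 pairs, lowest 0.0379).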

Additional observations from a re-analysis of the deposited data

Results flagged for a closer look

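The age difference, 28 against 15 DAS, differed between batch 2 and batch 1 by a test of that difference (edgeR, BH adjusted p below 0.05) for 8 of the 10 genes, for 5 of 13 other maintenance genes, 17 of 27 other RdDM genes and 8 of 8 other demethylation genes. Batch 2 minus batch 1 was -1.16 for MET1, -0.74 for CMT3, -0.73 for ROS1 and -0.28 for DRM2 on the log2 scale, so these genes dropped more, or rose less, with age in batch 2. It was 0.62 for NRPD1, 0.43 for DCL3, 0.36 for RDR2 and 0.36 for CMT2, in the other direction. No call among the 10 genes, and no direction of the 8 called, changed with the other scalings, the replicate block, the filter, nuclear genes alone or the exchange for smallest Ler. Of the 4 other genes with the smallest adjusted p in each list, maintenance gave -0.99 for SUVH4, -0.90 for VIM1, -0.37 for VIM3 and -0.23 for HDA6. RdDM gave 0.81 for NRPD4, -0.91 for KTF1, 0.70 for HEN1 and 0.51 for DMS3. Demethylation gave 1.84 for DML3, a glycosylase related to ROS1, -1.04 for DML2, -0.91 for DME and -0.61 for MBD7. The test was called for 56.8% of all genes. The batches differ in light tubes and in their F1 and L genotypes, which cannot be told apart in this contrast.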

How the results depend on the processing

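Of 38 calls made for the 10 genes, 20 were kept under every alternative, and of 869 alternative values behind the 38 calls 796 kept direction and call, 69 kept direction but not the call and 4 reversed. With total-count scaling the age difference reversed for CMT3 (-0.33) and MET1 (-0.37) in batch 1 and NRPD1 (-0.30) and DCL3 (-0.60) in batch 2, and also for HDA6 in batch 1 (-0.16) and SDC in batches 1 (-0.17) and 2 (-0.36), through the shift of all genes. CMT2 in batch 2, not called, had an adjusted p of 0.0434 with the replicate block within batch. That block moved the calls among L lines from 2 to 5, while the share of all genes called rose as well, and the cause was not tested. For the small plants, 0 calls became 1 with DESeq2, 2 with the replicate block, 2 with the block within batch (NRPE1 in S1-1 against C24xLer, beside 10.4% of all genes, and in smallest Ler against Ler, beside 1.63%) and 1 without both near-identical C24 pools. The block within batch took S1-1 and S2-1 as batch 1, which the protocols do not state for each line. Deviations of same-letter pools of S1-1 and C24xLer correlated at 0.095, so that call rests on a pairing not seen there. With 1 library left out, the calls among L lines were 1 to 3 and those of the small plants 0 to 1. The counts for age, Ler against C24, the F1 and the L lines against the mid-parent and the parents between batches stayed within 1.5 times under every alternative. With the replicate block the count of age calls stayed at 17, with MET1 (adjusted p = 0.00226), CMT3 (0.000371) and NRPD1 (0.00534) called in batch 1. With 2 pools a group, small differences were often out of reach, and intervals between pools say nothing of single plants.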
